A study of Mus musculus with 15 samples.

Results

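Immunity-related GTPases (IRGs) are a family of interferon-induced GTPases, and 7 of them were followed here through a week of intratumoral poly(I:C) treatment. The members were chosen by name as Igtp, Irgm1, Irgm2, Iigp1, Ifi47, Tgtp1 and Tgtp2, and each was found among the 32544 entries of the gene count table. RNA was measured in 15 subcutaneous WEHI-164 tumors, grown from a mouse fibrosarcoma line in female BALB/c mice labelled as wild-type (WT). Day 0 tumors were untreated, and the other tumors were injected with poly(I:C), a double-stranded RNA mimic sensed by Toll-like receptor 3, and harvested on day 1, 3, 5 or 7. Each harvest day had 3 tumors. Per the labels, the dose was 1 µg in 25 µL each day for a planned 6 doses. The dose is uncertain, because a legend among the study's supplementary files states a larger one. The labels give no age for these mice and do not state how many doses a tumor had received at harvest. All tumors came from a single cell line, and no vehicle-injected tumors were analysed here, so poly(I:C), injection and time of growth cannot be told apart.

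IRGs are part of cell-autonomous immunity in mice. Interferon gamma, and to a lesser degree type I interferon, induces them, in part through the transcription factor IRF1. The effector members, called GKS proteins after a glycine-lysine-serine run in the nucleotide-binding loop, load onto the vacuoles of intracellular parasites such as Toxoplasma gondii and help to break them open. Iigp1 (also called Irga6), Ifi47 (Irgd), Tgtp1 (Irgb6) and its near-identical copy Tgtp2 belong to this class. The regulators, called GMS proteins because methionine replaces that lysine, sit on the cell's own membranes and keep the effectors inactive there. Igtp (Irgm3), Irgm1 and Irgm2 belong to the GMS class. Guanylate-binding proteins (GBPs) and the autophagy conjugation machinery act with IRGs at the vacuole.

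The codons of the nucleotide-binding loop are shown because they define both classes of the family. The loop was found in the coding sequence of each member from GENCODE M21 transcripts (GRCm38). Capitals mark the codon that separates the classes, ATG for methionine in GMS members and AAG for lysine in GKS members.

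Igtp, chr11:58206275-58206298, plus strand: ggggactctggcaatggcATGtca

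Irgm1, chr11:48866761-48866784, minus strand: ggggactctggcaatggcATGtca

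Irgm2, chr11:58219695-58219718, plus strand: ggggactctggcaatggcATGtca

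Ifi47, chr11:49095648-49095671, plus strand: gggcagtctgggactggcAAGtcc

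Tgtp1, chr11:48987667-48987690, minus strand: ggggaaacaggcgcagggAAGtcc

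Tgtp2, chr11:49059534-49059557, minus strand: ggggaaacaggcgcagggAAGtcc

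The 24 bases were identical among the 3 GMS members and identical between Tgtp1 and Tgtp2. The loop of Iigp1 was also of the GKS class, and its bases are not printed here. Over whole coding sequences, the GMS members shared between 64.1% and 67.9% of aligned positions with each other. Iigp1, Ifi47 and the Tgtp genes shared between 56.2% and 58.6%, apart from Tgtp1 and Tgtp2, which were identical at 1244 of 1248 positions (99.7%). Between the classes the identity was 50.5% to 54.3%.

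Promoter sequence is shown because interferon induces the family. Its part in the levels measured here was not tested. The sequence was taken from the RefSeq table of promoters on GRCm38.p6. Each entry holds 250 bases before and 50 bases after an annotated start of transcription. For Irgm1, Irgm2 and Tgtp1 that start lay inside the GENCODE span of the gene. Entries were found for 6 of the 7 members, all but Iigp1. Both strands were searched for GAAANNGAAA, the core of the interferon-stimulated response element (ISRE) bound by IRF proteins, and for TTCNNNGAA, the core of the gamma-activated site (GAS). The 100 bases before the start are printed with matches in capitals, written in the direction of transcription.

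Igtp, chr11:58199456-58199555, plus strand: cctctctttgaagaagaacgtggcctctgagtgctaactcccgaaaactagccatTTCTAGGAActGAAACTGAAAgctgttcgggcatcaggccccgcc

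Irgm2, chr11:58214877-58214976, plus strand: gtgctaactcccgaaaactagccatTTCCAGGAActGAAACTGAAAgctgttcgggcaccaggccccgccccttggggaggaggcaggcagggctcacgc

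Irgm1, chr11:48871421-48871520, minus strand: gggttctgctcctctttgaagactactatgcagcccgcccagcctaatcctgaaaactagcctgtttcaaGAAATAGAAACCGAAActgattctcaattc

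Ifi47, chr11:49076487-49076586, plus strand: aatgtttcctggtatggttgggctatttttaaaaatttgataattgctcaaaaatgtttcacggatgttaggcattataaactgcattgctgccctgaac

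Tgtp1, chr11:48992247-48992346, minus strand: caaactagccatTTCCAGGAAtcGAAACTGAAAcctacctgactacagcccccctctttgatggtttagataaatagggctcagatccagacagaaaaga

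Tgtp2, chr11:49064213-49064312, minus strand: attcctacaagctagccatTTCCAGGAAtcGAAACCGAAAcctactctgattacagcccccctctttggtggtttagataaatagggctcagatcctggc

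Igtp, Irgm2, Tgtp1 and Tgtp2 each held a GAS core and an ISRE core, with the first base of the GAS core 11 bases before that of the ISRE core in all 4. Irgm1 held 2 overlapping ISRE cores, 30 and 24 bases before its start, and no GAS core. Ifi47, with 5 transcripts in GENCODE, held neither in its entry. Any other start of these genes was not searched. Of 32851 promoters of the same length, 3.44% held the ISRE core, 8.30% the GAS core and 0.454% both. These letters were matched only, and no binding was measured. GENCODE annotates exons over all 100 printed bases of Irgm1 and over 12 of the 100 printed bases of Tgtp1.

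The depth was similar across tumors, at 23.7 to 31.9 mega-counts in all, and every member had between 2074 and 26828 counts in every tumor. Levels are given as CPM, the count divided by the library total after its adjustment by the TMM method. A single tumor stood apart, day 3 replicate 1, which lay at 144 on the first principal component (57.4% of the variance of log2 CPM) while the other 14 lay between -77.0 and 45.1. Its summed skeletal muscle markers stood at 2159 CPM, against 2.42 to 137 CPM in the other tumors, and its summed macrophage, T cell and mesenchymal markers were also the highest of the 15. These are sums, and the markers of a list did not all move alike. With all tumors of day 3 against day 0, 5 of 8 mesenchymal markers had higher fitted levels and 3 lower. Of the 9 macrophage markers, 8 were higher and 1 lower. Checked against the fibrosarcoma label, all 8 mesenchymal markers were detected in each tumor, at a summed 8843 CPM or more. Many comparisons, correlations and group means that use day 3 are therefore also given without that tumor, but not all. A day 3 value given without such a statement includes all 3 tumors of that day. In bulk tumor RNA, fewer cells of a type and less RNA per cell cannot be told apart.

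All 7 members were expressed before treatment. Compared per kilobase of the transcript with the longest coding sequence, the day 0 levels ran from 160.6 ± 27.0 CPM per kb for Iigp1 to 60.4 ± 4.75 for Irgm2 (SD, n = 3). Irgm1 was at 149.8 ± 15.6 and Igtp at 137.7 ± 15.3 CPM per kb, so that the spreads of these highest 3 members overlapped. Tgtp2 followed at 90.4 ± 7.63, Tgtp1 at 81.8 ± 3.62 and Ifi47 at 66.9 ± 10.7 CPM per kb. This order depends on the single transcript length taken for each gene. Irgm2 was divided by 3.528 kb and Ifi47 by 1.773 kb, while their day 0 means were 213 and 119 CPM. The family together held 0.172% to 0.217% of all counts on day 0 and reached 0.395% in day 1 replicate 3, the highest of the 15 tumors. The lowest share was 0.118%, in day 7 replicate 3.

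The GMS members shared a single tumor-to-tumor pattern, tight on day 0 and split within each treated day, with the lowest mean on day 7. Even so, day 7 replicate 2 was above all untreated tumors for all 3 of them. Igtp (ENSMUSG00000078853.8, chr11:58199556-58207591, plus strand), the regulator that restrains effectors on endoplasmic reticulum and lipid droplet membranes, was at 247, 308 and 281 CPM in day 0 replicates 1, 2 and 3. Its day 1 tumors were at 273, 619 and 753 CPM, its day 3 tumors at 335, 630.3 and 486 CPM, its day 5 tumors at 566, 479 and 239 CPM, and its day 7 tumors at 189, 319 and 171 CPM. On day 1 replicate 1 was still within the day 0 range while replicates 2 and 3 were the highest of that day, and on day 5 replicate 3 was below all untreated tumors. The mean was 549 ± 248 CPM on day 1 against 279 ± 30.9 on day 0, a fold of 1.97. Irgm1 (ENSMUSG00000046879.7, chr11:48861968-48871683, minus strand), which associates with Golgi and lysosomal membranes, was at 309, 377 and 329 CPM on day 0 and at 378, 586 and 711 CPM on day 1. It was at 363, 674 and 584 CPM on day 3, at 516, 539 and 319 CPM on day 5, and at 253, 385 and 231 CPM on day 7. All 3 day 1 tumors were above all 3 day 0 tumors, narrowly so for replicate 1, whereas day 3 replicate 1 fell inside the untreated range. Irgm2 (ENSMUSG00000069874.7, chr11:58199618-58222782, plus strand), a Golgi-associated regulator, was at 195, 228 and 217 CPM on day 0. Its day 1 tumors were at 234, 425 and 490.2 CPM, its day 3 tumors at 249, 442 and 380.3, its day 5 tumors at 400.2, 353 and 182, and its day 7 tumors at 133, 252 and 139 CPM. For Irgm2 both the day 1 and the day 3 tumors lay above all day 0 tumors, and the same 3 treated tumors as for Igtp and Irgm1 (day 1 replicate 1, day 3 replicate 1 and day 5 replicate 3) were the lowest of their day.

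The GKS effectors followed a like course, with the highest mean on day 1, 3 or 5 depending on the gene, and on day 3 for each of them once day 3 replicate 1 was left out. Iigp1 (ENSMUSG00000054072.12, chr18:60376027-60392634, plus strand), the best studied effector, was at 415, 583 and 506 CPM on day 0, at 390, 862 and 863 CPM on day 1, and at 571, 768 and 823 CPM on day 3. Day 5 gave 982, 808 and 395 CPM and day 7 gave 312, 527 and 238 CPM, so the day 5 group held both its highest tumor and one below every untreated tumor. Ifi47 (ENSMUSG00000078920.3, chr11:49076587-49096974, plus strand), an effector also known as IRG-47, was at 99.1, 137 and 120.1 CPM on day 0. Its day 1 tumors were at 118, 205 and 250.1 CPM, its day 3 tumors at 196, 226 and 196, its day 5 tumors at 242, 204 and 118, and its day 7 tumors at 110, 145 and 86.7 CPM. Ifi47 was the least variable member on day 3 (206 ± 17.0 CPM), with all 3 tumors above day 0, day 3 replicate 1 included. Tgtp1 (ENSMUSG00000078922.9, chr11:48985327-48994172, minus strand), an effector first found in T cells, was at 227, 243 and 224 CPM on day 0 and at 199, 451 and 503 CPM on day 1. It was at 170, 432 and 405.5 CPM on day 3, at 385, 390.5 and 196 CPM on day 5, and at 149, 255 and 135 CPM on day 7. Its level in day 3 replicate 1 was higher than in only 2 of the other 14 tumors and lay below all untreated tumors. Tgtp2 (ENSMUSG00000078921.3, chr11:49057194-49064206, minus strand), its neighbor on the chromosome, was at 233, 276 and 252 CPM on day 0, at 226, 409 and 509.5 CPM on day 1 and at 382, 472 and 429 CPM on day 3. It was at 446, 446 and 236 CPM on day 5 and at 179, 294 and 163 CPM on day 7, and unlike Tgtp1 it was above all untreated tumors in each of the 3 day 3 tumors. Day 7 replicate 2 was above all untreated tumors for Ifi47, Tgtp1 and Tgtp2, but not for Iigp1.

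**Figure D1:**
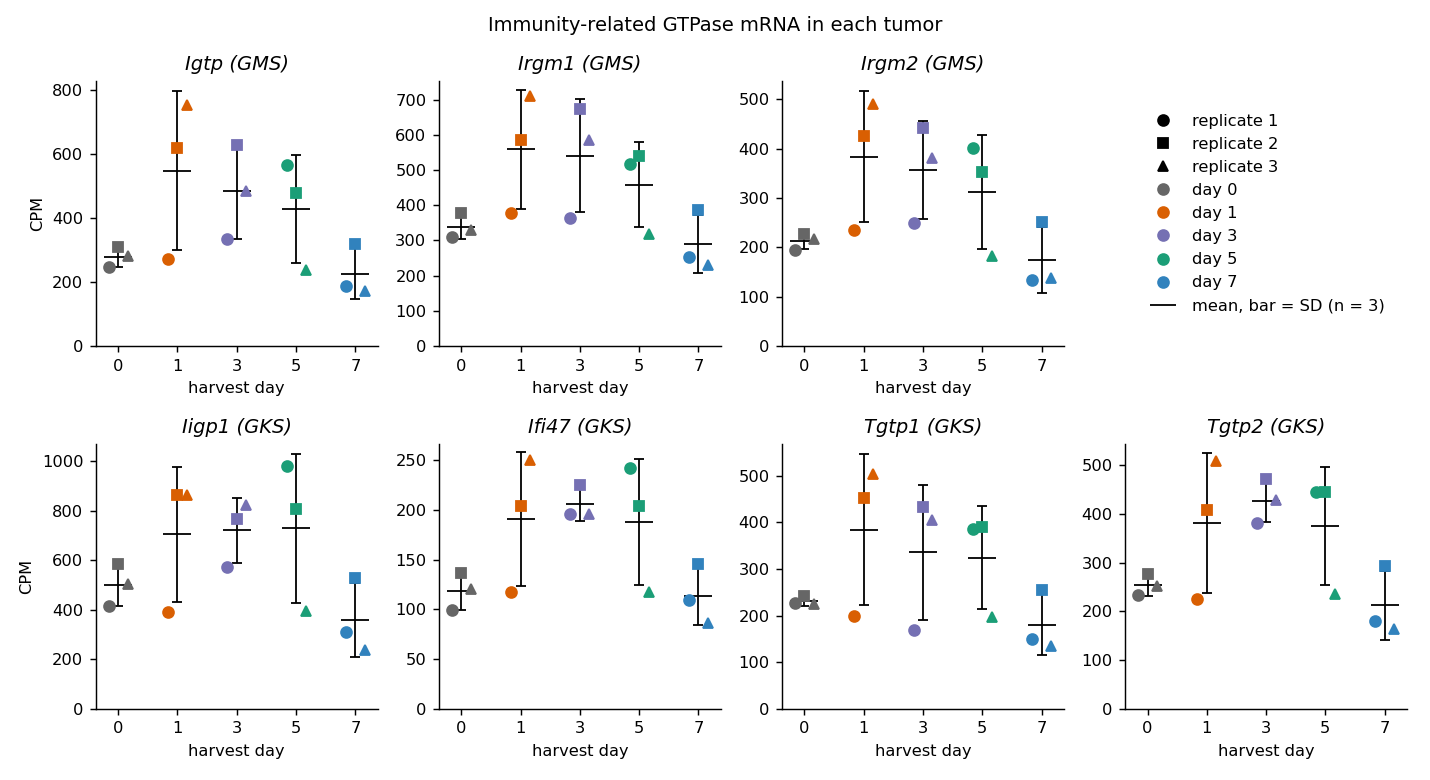
CPM of each member in each of the 15 tumors by harvest day, with the mean and SD of 3 tumors, GMS members above and GKS members below. Day 1 replicate 1 and day 5 replicate 3 sat at or near the untreated level in every panel, and day 7 had the lowest mean in every panel.

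The order of the days by mean CPM was day 1, 3, 5, 0 and 7, from highest to lowest, for Igtp, Irgm1, Irgm2 and Tgtp1. For Ifi47 and Tgtp2 it was day 3, 1, 5, 0 and 7, and for Iigp1 day 5, 3, 1, 0 and 7. With day 3 replicate 1 left out, day 3 had the highest mean for all 7 members, followed by days 1, 5, 0 and 7 for 6 of them and by days 5, 1, 0 and 7 for Iigp1. The day 3 means of the 2 remaining tumors were then 558 CPM for Igtp, 629 for Irgm1, 411 for Irgm2, 795 for Iigp1, 211 for Ifi47, 419 for Tgtp1 and 450.3 for Tgtp2. Over all tumors, between neighbors in the first orders the groups overlapped in every case. Day 7 had the lowest mean for all 7 members, from 114 ± 29.6 CPM for Ifi47 to 359 ± 150.3 CPM for Iigp1.

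The comparisons with day 0 asked whether the family changed under treatment, and when. All 7 members had higher fitted levels on days 1, 3 and 5 and lower ones on day 7, but none passed the test. The edgeR quasi-likelihood test, with Benjamini-Hochberg adjustment over 15494 genes, called 0 of 7 members and 0% of all genes on each treated day against day 0, and likewise in the joint test of the 4 treated days. On day 1 the log2 fold changes ran from 0.49 for Iigp1 to 0.98 for Igtp, with a median of 0.72 against -0.0002 over all genes tested. The lowest adjusted p from edgeR on that day was 1.00, and 4 members and 489 of all genes had an unadjusted p under 0.05. On day 3 they ran from 0.52 for Iigp1 to 0.80 for Igtp and for Ifi47, with a median of 0.75 against -0.02 over all genes. Ifi47 had the lowest adjusted p on day 3 (edgeR, 0.123, log2 fold change 0.80 with a standard error of 0.30), and Tgtp1 the highest (0.348). Of the members 3 had an unadjusted p under 0.05 on day 3, as had 4654 of all genes. Without day 3 replicate 1 the median was 0.86, with edgeR calling 0 members, and 6 members and 2011 of all genes had an unadjusted p under 0.05. The log2 fold changes then ran from 0.67 for Iigp1 to 1.01 for Igtp, with Tgtp1 at 0.86. The edgeR adjusted p-values then ran from 0.366 for Irgm1 and Irgm2 to 0.465 for Iigp1. On day 5 the range was 0.44 for Irgm1 to 0.66 for Ifi47, with a median of 0.55 against 0.001 over all genes, and edgeR's adjusted p-values of 0.859 to 0.869. Only Ifi47 had an unadjusted p under 0.05 there, with 744 of all genes. On day 7 the range was -0.48 for Iigp1 to -0.06 for Ifi47 with a median of -0.29, every adjusted p from edgeR was 1, and 0 members and 320 of all genes had an unadjusted p under 0.05. The joint test gave the members edgeR adjusted p-values of 0.292 to 0.383, with 5 members and 2509 of all genes under 0.05 before adjustment.

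**Figure D2:**
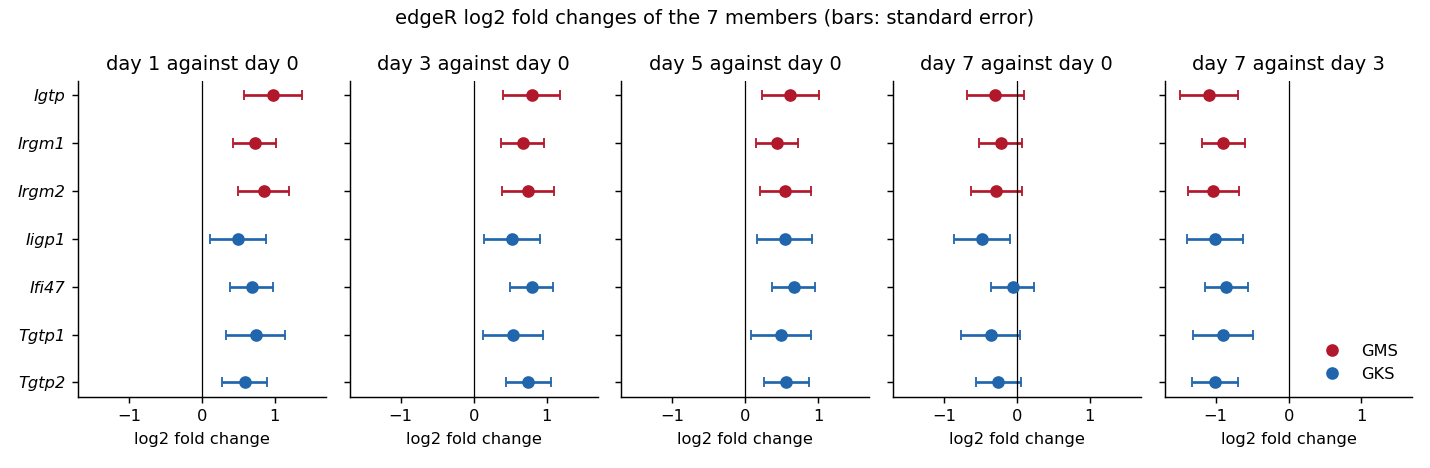
edgeR log2 fold change of each member in 5 comparisons, with standard errors, GMS members in red and GKS members in blue. All points lay to the right of 0 on days 1, 3 and 5 and to the left of 0 on day 7, against day 0 as well as against day 3.

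Within the course, day 7 was compared with days 3 and 5. All 7 members were lower on day 7 than on day 3, from -0.85 for Ifi47 to -1.09 for Igtp on the log2 scale, with a median of -1.005 against 0.02 over all genes. EdgeR called 0 of 7 members and 0% of all genes, with adjusted p-values from 0.0832 for Tgtp2 to 0.138 for Tgtp1. All 7 members and 5502 of all genes had an unadjusted p under 0.05. Without day 3 replicate 1 the median was -1.14, edgeR again called 0 members, and 7 members and 2422 of all genes were under 0.05 before adjustment. From day 5 to day 7 all 7 were again lower, with a median of -0.84, an edgeR adjusted p of 0.848 for each, and 6 members and 468 of all genes under 0.05 before adjustment. Between days 1 and 3 and between days 3 and 5 the medians were -0.05 and -0.18, with 0 of 7 members and 0% of all genes called by edgeR. Leaving out day 3 replicate 1 gave 0.14 and -0.36, and the first of these had changed sign. With all tumors, 0 members in each of these 2 comparisons had an unadjusted p under 0.05, against 2845 and 1229 of all genes. Comparisons that share a harvest day share its tumors, so their values are not independent.

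The separation of tumors between days was described as well. On day 1, 2 members (Irgm1 and Irgm2) had all 3 tumors above all 3 untreated tumors, as had 5.76% of all genes. On day 3 these were 4 members (Igtp, Irgm2, Ifi47 and Tgtp2), against 19.4% of all genes. With day 3 replicate 1 left out, all 7 members had both remaining tumors above day 0, against 23.2% of all genes. On day 5 no member was separated upward (6.89% of all genes) and on day 7 none was separated downward from day 0 (6.26%) or from day 5 (3.54%). Against day 3, Igtp, Iigp1, Ifi47 and Tgtp2 were separated downward on day 7, 4 members against 18.4% of all genes. When day 3 replicate 1 was left out all 7 were, against 21.5% of all genes.

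DESeq2, run as an alternative, called members between days 3 and 7 and in the joint test. Between days 3 and 7 it called 6 of 7 members lower (adjusted p from 0.0175 for Tgtp2 to 0.0423 for Iigp1), all but Tgtp1 (0.0843), while it called 20.9% of all genes. It called only Irgm1 without day 3 replicate 1 (log2 fold change -1.11, standard error 0.29, DESeq2 adjusted p 0.0291) and 0.566% of the 15378 genes that then passed the filter. In the joint test DESeq2 called Irgm1 alone among the members (adjusted p 0.0494), with 7.65% of all genes called. Irgm1 was again the only member called there without day 3 replicate 1 (DESeq2 adjusted p 0.0157), with 1.14% of all genes called. On day 3 against day 0 it called 0 of 7 members, the lowest adjusted p being 0.0533 for Ifi47, and 12.9% of all genes. That comparison also had 0 of 7 members called without day 3 replicate 1, with 0.566% of the same 15378 genes called. On days 1, 5 and 7 against day 0 DESeq2 called 0 members and 0.258%, 0.0645% and 0.0323% of all genes.

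Tgtp1 and Tgtp2 need to be read as a pair. Of all 31-base words in their transcripts, 15.6% of those in Tgtp1 and 9.46% of those in Tgtp2 occurred in no other gene, and 83.2% and 89.2% occurred in the other copy. Reads from shared words are divided between the copies by the authors' abundance estimation. In 14 tumors the ratio of Tgtp2 to Tgtp1 lay between 0.908 and 1.20. In day 3 replicate 1 it was 2.25, with Tgtp1 at 170 CPM and Tgtp2 at 382 CPM. The sum of both copies in that tumor was 552 CPM, between the 519 CPM of the highest untreated tumor and the 834 and 904 CPM of the other day 3 tumors. Summed, the untreated pair was at 485 ± 30.4 CPM, and the treated pair was at 766 ± 305, 763 ± 186, 699.6 ± 232 and 392 ± 137 CPM on days 1, 3, 5 and 7 (SD, n = 3). The other members were better resolved, with 84.1% (Igtp) to 97.1% (Irgm1) of their words in no other gene. Igtp and Irgm2 overlap on the same strand by 162 exonic bases, 8.01% of the exonic bases of Igtp and 4.39% of those of Irgm2. Counts over those bases cannot be assigned to 1 gene with certainty. Ifi47 shares 111 exonic bases with Olfr56 on its strand and 106 with Gm12188 on the other. Tgtp1 shares 223 with Gm12185 on its strand, 6.96% of the exonic bases of Tgtp1, so counts of Gm12185 may in part be those of Tgtp1.

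**Figure D3:**
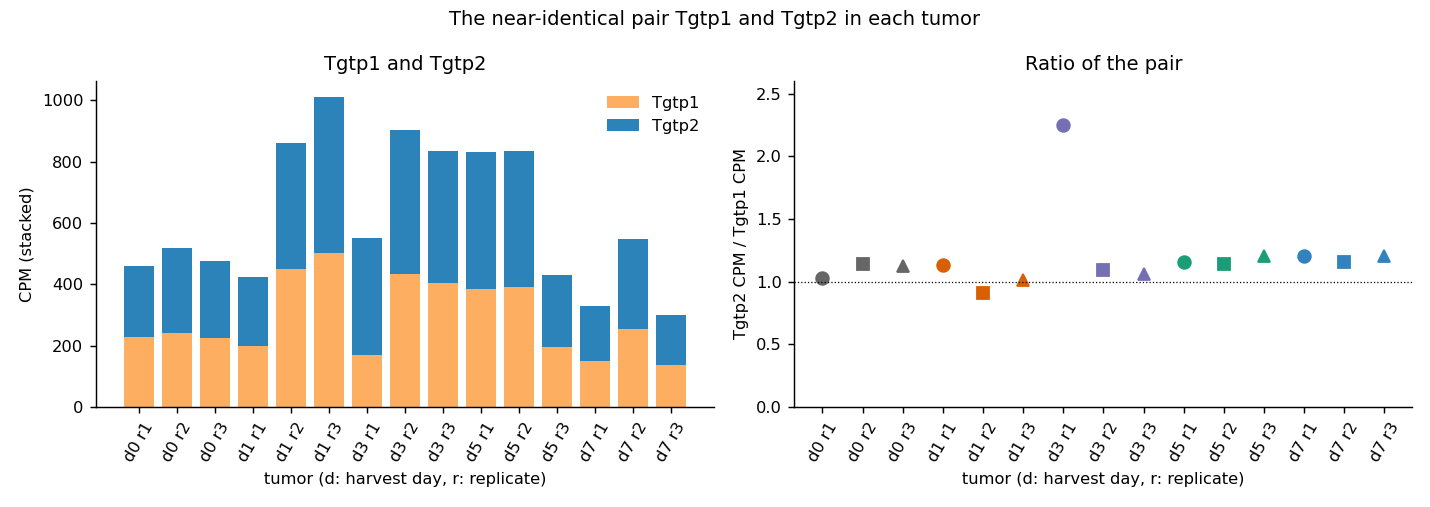
Left, CPM of Tgtp1 and Tgtp2 stacked for each of the 15 tumors. Right, the ratio of Tgtp2 to Tgtp1 in the same tumors, at 2.25 in day 3 replicate 1 and between 0.908 and 1.20 in the other 14.

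Across tumors the members varied together. Over the 15 tumors the 21 pairs of members had Pearson correlations of log2 CPM from 0.84 (Ifi47 and Tgtp1) to 0.99 (Igtp and Irgm2), with a median of 0.95. Without day 3 replicate 1 the range over 14 tumors was 0.93 to 0.99, with a median of 0.97. Igtp and Irgm2 are also the pair of neighbors with overlapping exons, and the points share harvest days and library preparation. The 3 GMS members correlated at 0.98 to 0.99 with each other, and Tgtp1 and Tgtp2 correlated at 0.89. Leaving out day 3 replicate 1, Tgtp1 and Tgtp2 correlated at 0.99 and Ifi47 and Tgtp1 at 0.95.

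**Figure D4:**
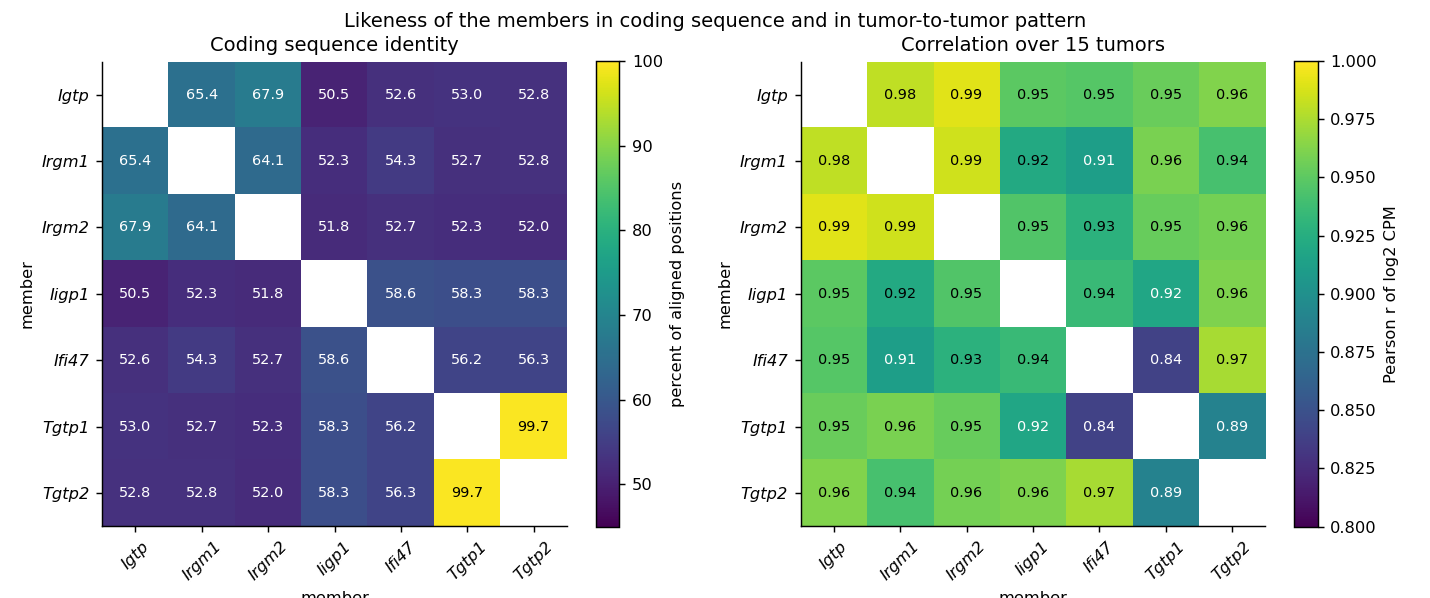
Left, percent identity of aligned coding positions for each pair of members. Right, Pearson correlation of log2 CPM over 15 tumors for the same pairs, lowest for Ifi47 and Tgtp1 (0.84, or 0.95 without day 3 replicate 1) and at 0.89 for Tgtp1 and Tgtp2 (0.99 without that tumor).

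The balance of effectors and regulators was described by the mean log2 CPM of the GKS members minus that of the GMS members in each tumor. On day 0 it was -0.19, -0.14 and -0.17 in replicates 1, 2 and 3. On day 1 it was -0.44, -0.34 and -0.40, so that the 3 day 1 tumors lay below the 3 untreated ones. On day 3 it was -0.09, -0.40 and -0.22, on day 5 -0.12, -0.13 and -0.16, and on day 7 -0.09, -0.19 and -0.27. With Tgtp1 and Tgtp2 counted as a single gene the day 1 tumors were again the lower ones, at -0.10, -0.01 and -0.09 against 0.12, 0.21 and 0.18 on day 0. Day 3 replicate 2 lay within the day 1 range either way, and the difference between days was not tested.

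Other genes of the family were taken from a list of 9. Of these, 8 passed the filter on low counts, and Irgc1 did not, with at most 5 counts in a tumor. EdgeR called 0 of the 8 in every comparison. DESeq2 called 5 of them higher on day 3 against day 0, and 5 lower and 1 higher on day 7 against day 3, but 0 and 1 in these comparisons when day 3 replicate 1 was left out. It also called 1 of the 8 lower on day 5 against day 0. On day 3, 5 of 8 were higher and the median log2 fold change was 0.74, while between days 3 and 7, 7 of 8 were lower with a median of -0.91. Without day 3 replicate 1 these were 5 of 8 with a median of 0.64 and 6 of 8 with a median of -0.91, and edgeR called 0. The 4 with the highest mean were 9930111J21Rik2, Gm12250, Gm4951 and Gm12185. Untreated, Gm12250 was at 43.0 ± 9.77 CPM, and on days 1, 3, 5 and 7 it was at 90.8 ± 41.2, 90.4 ± 25.5, 72.5 ± 28.6 and 40.9 ± 13.3 CPM (SD, n = 3). On day 3 the log2 fold change was 0.97 for Gm4951 (standard error 0.33, edgeR adjusted p 0.115) and 1.10 for Gm12185 (0.41, 0.124). 9930111J21Rik2 stood at 77.1 ± 9.62 CPM on day 0 and 109.7 ± 30.7 on day 3. Over the 2 other day 3 tumors the means were 104 CPM for Gm12250 and 93.4 CPM for 9930111J21Rik2. Irgq, a family member that is not known as interferon-induced, gave -0.38 there (edgeR adjusted p 0.121, log2 fold change). These day 3 values were 1.00 for Gm4951, 1.36 for Gm12185 and -0.28 for Irgq once replicate 1 of that day was left out.

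The guanylate-binding proteins, which are induced by the same interferon and act at the same vacuoles, gave values close to those of the IRGs. All 11 were higher on days 1, 3 and 5 and lower on day 7 against day 0, and edgeR called 0 of them in each comparison. Against day 0 their median log2 fold changes were 0.65, 0.83, 0.55 and -0.34 for days 1, 3, 5 and 7, and day 7 against day 3 gave -1.21. Gbp4 was at 409 ± 124, 728 ± 73.6 and 314 ± 142 CPM on days 0, 3 and 7 (SD, n = 3). Gbp2b was at 330.3 ± 50.2, 545 ± 33.6 and 245 ± 107 CPM on those days, Gbp2 at 282 ± 49.1, 436 ± 63.1 and 224 ± 91.6 CPM, and Gbp3 at 157 ± 25.5, 297 ± 61.5 and 136 ± 42.0 CPM. The 2 day 3 tumors other than replicate 1 had means of 768 CPM for Gbp4, 564 for Gbp2b, 473 for Gbp2 and 327 for Gbp3. DESeq2 called 4 of the 11 higher on day 3 against day 0 and all 11 lower on day 7 against day 3. Without day 3 replicate 1 DESeq2 called 0 and 2 of them in these comparisons, while the edgeR medians were 0.87 and -1.25.

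The list of interferon signalling genes mixed genes upstream of the family, such as Jak1, with interferon targets such as Irf7. Of 17 listed, 16 were tested and edgeR called 0 in each comparison. For days 1, 3, 5 and 7 against day 0, 14, 15, 15 and 2 of them were higher, with medians of 0.33, 0.62, 0.34 and -0.18, while day 7 against day 3 gave 16 of 16 lower and a median of -0.85. DESeq2 called 6 of the 16 higher on day 3 against day 0 and 11 lower on day 7 against day 3, and 1 and 2 in these comparisons when day 3 replicate 1 was left out. On day 1 against day 0 it called 1 higher. On day 3 the log2 fold change of Irf1, which binds ISRE-like sites, was 0.40 (standard error 0.29, edgeR adjusted p 0.331). Irf7, a target of type I interferon, had one of 2.63 (0.51, 0.115). Jak1, a kinase of both receptors, had one of 0.23 (0.12, 0.186). With day 3 replicate 1 left out these values were 0.52, 2.54 and 0.09, and the medians of the list were 0.53 on day 3 and -0.67 between days 3 and 7. Ifng itself was scarce, between 17 counts (0.691 CPM) in day 7 replicate 1 and 226 counts (8.31 CPM) in day 3 replicate 2. Ifnb1 did not pass the filter, with at most 21 counts in a tumor.

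Genes for vacuole loading and autophagy conjugation, the partners of IRGs at the membrane, had medians closer to 0, with Trim21 as far from it on day 3 as the IRGs. Of 15 tested, edgeR called 0 in each comparison, and the medians for days 1, 3, 5 and 7 against day 0 were 0.01, 0.16, 0.11 and 0.03, with -0.14 for day 7 against day 3. DESeq2 called 2 of them higher on day 3 against day 0 and 2 lower on day 7 against day 3, and 0 in either when day 3 replicate 1 was left out. Trim21, an interferon-induced ubiquitin ligase, had edgeR log2 fold changes of 0.80 and -0.89 in these comparisons, and Atg7, the activating enzyme of autophagy conjugation, of 0.57 and -0.62. On day 3 against day 0 these were 0.73 and 0.34 over the tumors other than day 3 replicate 1. Sqstm1, an autophagy receptor and the one with the highest CPM, stood at 612 ± 16.1 CPM before treatment (SD, n = 3) and at 529 ± 136 by day 3, or 607 over the 2 tumors other than replicate 1. Gabarap and Map1lc3b, which are conjugated to membranes in autophagy, had log2 fold changes on day 3 of 0.33 (standard error 0.18, edgeR adjusted p 0.220) and 0.06 (0.14, 0.765). Both were lower when that day's replicate 1 was left out, at 0.07 and -0.16, so that Map1lc3b changed sign, and the medians of the list were 0.01 on day 3 and 0.04 between days 3 and 7.

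Over all tested genes, the pattern most like that of the family was sought with the mean Z-score of the 7 members over 15 tumors. Gbp2 was the most like it (Pearson r = 0.99), followed by Batf2 (0.98), Gm12185 (0.98), Tap2 (0.98), Gm12250 (0.97), Gbp3 (0.97), Gbp2b (0.97), Tap1 (0.97), Irf1 (0.97) and Gm43302 (0.96). Over the 14 tumors other than day 3 replicate 1 these 10 genes had r from 0.97 to 0.99. Among single members, the most like was Irgm2 for Igtp and for Irgm1, Igtp for Irgm2, Gbp2 for Iigp1, Gm43302 for Ifi47, Irgm1 for Tgtp1 and Gbp2b for Tgtp2, with r from 0.96 to 0.99. The next most like were Irgm1 and Gbp2 for Igtp, Gm12185 and Igtp for Irgm1, Irgm1 and Tap2 for Irgm2, Gbp2b and Batf2 for Iigp1, Gm4951 and Il12rb1 for Ifi47, Igtp and Irgm2 for Tgtp1, and Gbp2 and Gm43302 for Tgtp2. Ifng ranked 59th with r = 0.90 and Irf7 537th with 0.73. Among other interferon signalling genes, Stat2 ranked 54th with 0.90 and Irf9 88th with 0.87. Leaving out day 3 replicate 1, the r of Ifng was 0.93 and that of Irf7 0.80, with 0.92 for Stat2 and 0.94 for Irf9. These are descriptions over tumors that share their harvest days. Of the genes named here, Gm12185 shares exonic bases with Tgtp1, and Igtp and Irgm2 share them with each other.

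**Figure D5:**
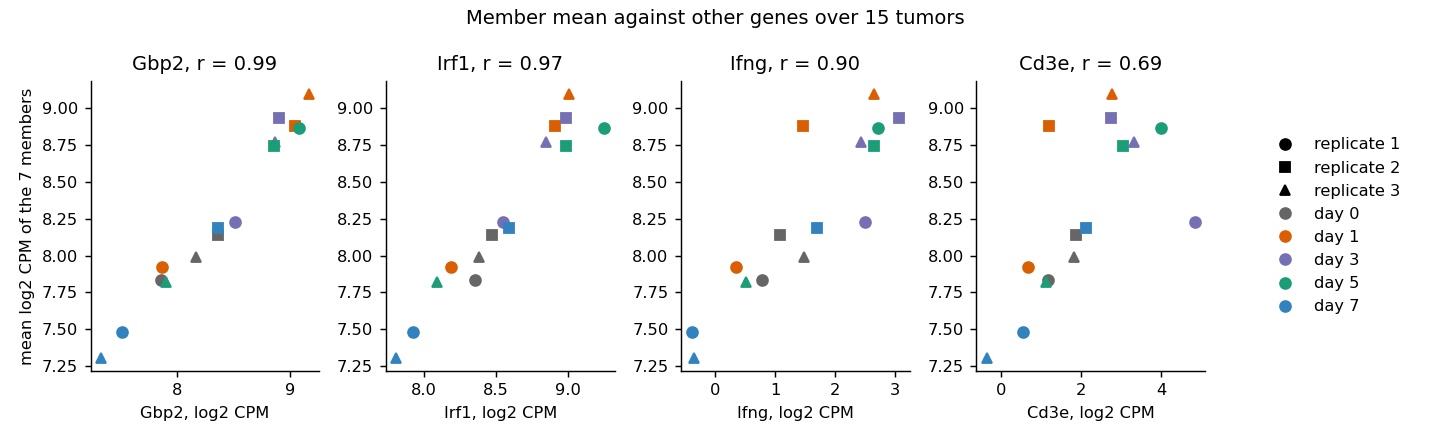
Mean log2 CPM of the 7 members against the log2 CPM of Gbp2, Irf1, Ifng and Cd3e in the 15 tumors, where r in each title is with the mean Z-score of the members. Day 3 replicate 1 lay off the line of the other tumors for the T cell gene Cd3e (r = 0.69, or 0.83 without that tumor), and within it for Gbp2.

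Markers of other cells moved with the family in part. The mean log2 CPM of the members was lowest in day 7 replicate 3 (7.31) and highest in day 1 replicate 3 (9.09). All 7 listed T cell markers were detected in each tumor, and their sum ran from 22.0 to 31.9 CPM before treatment, then for days 1, 3, 5 and 7 from 20.0 to 58.2, 72.1 to 219, 22.1 to 131 and 11.4 to 43.6 CPM. The 7 cytotoxic and NK cell markers, likewise all detected, summed to 84.2 to 125 CPM before treatment and to 64.9 to 247, 206 to 368, 58.0 to 276 and 24.1 to 118 CPM on those days. The 9 macrophage markers summed to 1595 to 1754 CPM before treatment and to 1285 to 2668, 2685 to 6739, 1818 to 3031 and 1084 to 2352 CPM on them. Within days 1, 5 and 7 the tumors with the lowest members, day 1 replicate 1, day 5 replicate 3 and day 7 replicate 3, also had the lowest sums of macrophage, T cell and cytotoxic markers. In day 3 replicate 1 the T cell and macrophage sums were the highest of all tumors while the member mean (8.23) was the lowest of its day. Erythroid markers, 4 of 5 detected in every tumor, summed to 8.08 to 20.5 CPM on day 0 and 26.4 to 199 on day 7, and keratinocyte markers, 1 of 4 detected in every tumor, to 1.97 to 25.2 CPM over all tumors. The summed endothelial markers ran from 74.7 to 487 CPM, and the summed adipocyte markers, 2 of 5 detected in every tumor, from 3.47 to 231 CPM, with the highest sum of each in day 3 replicate 1. The part of these cells in the values of the members was not tested.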

How the data were processed

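Poly(A) RNA of 15 tumors was sequenced as 100-base single-end reads. The authors checked the reads with FastQC, estimated transcript abundance with kallisto and summed it to genes with tximport on mm10 (GRCm38 per the labels). The transcript set and strandedness are not given in the sources used here. The deposited values are estimated counts per gene, already whole numbers, unpooled, in 1 column per tumor. Of 32544 entries, 1 had been turned into a date by a spreadsheet (at most 0.0268% of counts) and was left out.

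The filter of the study was applied, a CPM over 0.366 in 3 or more tumors, which left 15494 genes, all 7 members among them. The harvest day was taken from the labels. Tests were made with edgeR 4.0.16 (R 4.3.3), using TMM factors, 1 quasi-likelihood fit over the 15 tumors with a term for harvest day, and Benjamini-Hochberg adjustment over all genes, called at an adjusted p under 0.05. Standard errors are the log2 fold change divided by the root of F. The script was tested on simulated data. Log2 CPM used a prior count of 2. Alternatives were DESeq2 1.42.0, RLE factors, no filter, a robust spread estimate, a replicate block, the 2 days of a comparison alone, the Tgtp pair summed, and each tumor left out. Adjusted p-values that DESeq2 gave as missing stayed missing and were counted as not called. DESeq2 without day 3 replicate 1, and the separation of tumors and the list values without it, were added after the data were seen. The members and lists were chosen with earlier results of these data known, so no list was tested as a set. All 7 members are named. Of each list at most the 4 genes of highest mean CPM are named with values, together with the genes most like the family. Some genes of the lists are counted but not reported here by name. Irgq, Irgc1, Trim21, Atg7, Ifng, Ifnb1, Cd3e and the ranks of Irf7, Stat2 and Irf9 were added after their values were seen. Coordinates are from GENCODE M21 on GRCm38. Coding sequences were aligned globally with Biopython 1.88. Total counts were 23.7 to 31.9 mega-counts. A count of 3, the limit that a count of 0 allows, is 0.0940 to 0.127 CPM, and such limits cover counting error only. Per the study's legends, the tumors of a day came from separate mice.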

Additional observations from a re-analysis of the deposited data

How the results depend on the processing

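Whether members were called depended on the test. EdgeR called 0 members in each comparison with every alternative run on it, leaving out any 1 tumor included. DESeq2 called 6 members between days 3 and 7 and 1 in the joint test. Once day 3 replicate 1 was left out it called 1 in each of these and 0 on day 3 against day 0. The replicate numbers of the labels gave no sign of pairing the tumors. Same-numbered tumors of different days had deviations correlated at -0.62 to 0.51, with 9 of 30 pairs over 0.1. For tumors of other numbers the range was -0.59 to 0.61, with 28 of 60 pairs over 0.1. Deviations from a mean of only 3 tumors cannot settle whether the tumors were paired. With a replicate block 0 members were called, and the medians were 0.69, 0.72, 0.56 and -0.34 on days 1, 3, 5 and 7 against day 0, -0.07 for day 3 against day 1, -0.13 for day 5 against day 3, -0.90 for day 7 against day 5 and -1.04 for day 7 against day 3. All 154 values of members under the alternatives kept their direction on day 1, on day 3 and on day 5 against day 0, and for day 7 against days 5 and 3. These values share tumors and are not independent, and many alternatives left out a tumor of neither day compared. Values close to 0 changed sign when 1 tumor was left out. Against day 0 on day 7, Ifi47 ran from -0.27 to 0.10. Between days 1 and 3 the log2 fold changes ran from -0.50 to 0.12 for Igtp, -0.26 to 0.17 for Irgm1, -0.36 to 0.12 for Irgm2, -0.26 to 0.21 for Iigp1, -0.14 to 0.36 for Ifi47, -0.51 to 0.12 for Tgtp1 and -0.10 to 0.43 for Tgtp2, and the summed pair was at -0.0047. DESeq2 without day 3 replicate 1 gave 0.025 for Igtp. Between days 3 and 5 they ran from -0.43 to 0.11 for Igtp, -0.42 to 0.077 for Irgm2, -0.26 to 0.31 for Iigp1, -0.36 to 0.12 for Ifi47, -0.36 to 0.21 for Tgtp1 and -0.33 to 0.060 for Tgtp2. Tgtp1 was at 0.029 with the block, and Iigp1 at -0.11 with DESeq2 without day 3 replicate 1. The median of the members ran from 0.50 to 0.94 on day 1, lowest without day 1 replicate 3 and highest without replicate 1. It ran from 0.56 to 0.86 on day 3, from 0.34 to 0.82 on day 5 (without replicates 1 and 3 in turn), from -0.63 to -0.13 on day 7 against day 0 (without replicates 2 and 3 in turn) and from -1.32 to -0.78 between days 3 and 7. The cause of these differences was not tested. Each member had at least 2074 counts in every tumor.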
